A study of Mus musculus with 12 samples.

Results

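The genes of cholesterol and fatty acid synthesis were examined in medulloblastomas (MBs) of XRCC4/p53-deficient mice and in 2 kinds of normal brain sample. The set holds 29 genes, chosen by name from the pathway: 18 enzymes that build cholesterol from acetyl-CoA, 5 regulators around the SREBP transcription factors, the sterol carrier Stard4 and 5 genes of fatty acid and lipid synthesis. Of these, 28 were among the 18193 genes measured, and Acat2, which makes the first acetyl-CoA condensation product, had no probe set paired with it and is not analysed further. Expression was measured on Affymetrix mouse arrays, 1 array per mouse, in MBs of 8 mice, in granule neural progenitors (GNPs, labelled Cerebellar Granule Progenitor Cells) of 2 mice and in whole cerebellum of 2 mice. All values are log2 expression levels, so that a difference of 1 is a doubling of the signal, and the lowest value on the arrays is 2.20.

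The MBs arose in Nestin-Cre p53-/- mice in which Xrcc4 is deleted in the nestin-expressing neural progenitors, with the Xrcc4 alleles c/- in 6 of the mice (MB_630, MB_794, MB_1187, MB_1197, MB_1207 and MB_1224) and c/c in 2 (MB_706 and MB_1206). The GNPs and the cerebellum came from control animals that the study describes as matched for age and genotype, and the labels give neither their age nor their alleles. The labels call the MBs tumor tissue, whereas the methods list 6 of the 8 (all but MB_1187 and MB_706) among the MB cells kept in culture. Whether the arrays of those 6 hold tissue or cultured cells was not settled by the sources used here. Samples are named by group and mouse number, as in their titles.

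Cholesterol is built in a long chain of enzymes. The mevalonate pathway turns acetyl-CoA into isoprenoid units, these are joined to squalene, squalene is closed to lanosterol, and a series of enzymes in the endoplasmic reticulum trims lanosterol to cholesterol. Fatty acids are made from the same acetyl-CoA by acetyl-CoA carboxylase and fatty acid synthase and are then desaturated. Both branches are driven by the SREBP transcription factors, which are made as membrane proteins, escorted by SCAP to the Golgi for cleavage when sterols are scarce, and held back by the INSIG proteins when sterols are plentiful. SREBP2, from Srebf2, acts mainly on sterol genes, and SREBP1c, from Srebf1, mainly on fatty acid genes. The brain makes its own cholesterol, because lipoproteins of the blood do not cross into it, and myelinating oligodendrocytes are among its largest producers. In the postnatal cerebellum granule progenitors divide in response to Sonic hedgehog, whose signaling itself depends on sterols.

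SREBPs bind sterol response elements together with neighbouring factors such as NF-Y, so promoter windows of the genes are shown first. RefSeq windows on GRCm38.p6 (250 bases before to 50 after the annotated gene start) were at hand for 23 of the 29 genes, 31 windows in all. They were searched on both strands for a sterol response element (TCACNCCAC), the NF-Y box (CCAAT), an E-box (CACGTG) and a GC box (GGGCGG). The 5 windows below are those of a mevalonate pathway gene with the exact sterol response element, of 2 sterol genes with several NF-Y boxes, of the fatty acid synthase gene and of Srebf1. Capitals mark the sterol response element and the NF-Y box, which reads ATTGG when it lies on the other strand, and each sequence runs in the direction of its gene.
Hmgcs1, chr13:119690101-119690400, plus strand: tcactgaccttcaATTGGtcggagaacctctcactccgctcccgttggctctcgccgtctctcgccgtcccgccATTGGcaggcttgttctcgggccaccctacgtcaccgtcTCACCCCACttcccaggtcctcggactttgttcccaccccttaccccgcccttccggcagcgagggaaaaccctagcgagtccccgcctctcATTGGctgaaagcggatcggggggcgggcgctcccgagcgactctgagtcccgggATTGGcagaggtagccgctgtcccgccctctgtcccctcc
Mvk, chr5:114444019-114444318, plus strand: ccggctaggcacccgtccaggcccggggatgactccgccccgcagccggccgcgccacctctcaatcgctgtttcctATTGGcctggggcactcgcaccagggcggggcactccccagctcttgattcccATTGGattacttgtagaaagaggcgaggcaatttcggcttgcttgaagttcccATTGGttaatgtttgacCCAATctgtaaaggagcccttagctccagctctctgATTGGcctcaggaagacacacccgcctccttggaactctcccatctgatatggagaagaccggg
Nsdhl, chrX:72918271-72918570, plus strand: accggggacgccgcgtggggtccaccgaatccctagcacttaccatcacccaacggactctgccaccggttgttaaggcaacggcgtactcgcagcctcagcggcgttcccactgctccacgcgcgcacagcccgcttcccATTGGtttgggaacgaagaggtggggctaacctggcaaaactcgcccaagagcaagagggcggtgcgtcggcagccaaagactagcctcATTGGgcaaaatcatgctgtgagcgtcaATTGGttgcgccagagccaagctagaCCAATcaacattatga
Fasn, chr11:120824498-120824797, minus strand: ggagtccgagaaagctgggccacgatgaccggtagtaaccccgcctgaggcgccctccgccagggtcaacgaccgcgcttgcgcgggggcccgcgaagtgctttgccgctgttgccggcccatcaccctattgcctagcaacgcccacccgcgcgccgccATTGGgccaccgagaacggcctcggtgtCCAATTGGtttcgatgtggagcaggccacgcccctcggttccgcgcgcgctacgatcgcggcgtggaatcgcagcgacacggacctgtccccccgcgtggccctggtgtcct
Srebf1, the first of 3 windows, chr11:60210422-60210721, minus strand: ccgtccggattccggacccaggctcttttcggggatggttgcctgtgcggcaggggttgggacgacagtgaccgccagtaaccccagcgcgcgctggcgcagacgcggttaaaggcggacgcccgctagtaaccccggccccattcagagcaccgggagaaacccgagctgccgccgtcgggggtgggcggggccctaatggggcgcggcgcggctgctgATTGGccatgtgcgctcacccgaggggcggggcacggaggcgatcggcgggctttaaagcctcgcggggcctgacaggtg

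Hmgcs1 was the single gene of the set with the exact sterol response element in its window, at -137 to -129 from the start site. This sequence was found in 3.23% of the 31 windows and in 1.24% of all 32851 RefSeq windows of the same length. With at most 1 of the letters changed, 10 genes held it (32.3% of windows, against 24.2% of all). The NF-Y box was present in 19 of the 23 genes (64.5% of windows, against 37.4% of all), with 5 boxes in the window of Mvk and 4 each in those of Hmgcs1 and Nsdhl. The GC box was found in 19 genes (74.2%, against 35.7%) and the E-box in 5 (19.4%, against 7.15%). In Fasn, NF-Y boxes on opposite strands overlap by 2 bases. These matches describe letters in a window and do not show binding.

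The cell types behind the labels bear on each comparison and are given once here. The MBs carried granule lineage markers, with Atoh1 at 11.95 and Gli1 at 9.10. The mean level of 6 markers was 10.5 to 11.0, against 7.37 to 7.63 in the GNPs and 5.31 to 5.33 in cerebellum. By the test described below 5 of the 6 were higher than in the GNPs and 5 higher than in cerebellum, where 1 was lower. The 6 include Mycn, for which the study lists a gain in all of these MBs but MB_1206. They also include Ccnd2, named there among frequently gained or amplified oncogenes. The part of such gains in these levels was not tested. In the GNPs Atoh1 stood at 5.95 and the hedgehog target Gli1 at 2.30, close to the lowest value on the arrays, and all 5 mesenchymal markers (such as Col1a1 and Lum) were higher than in the MBs by the test described below. The mean level of these 5 was 7.30 to 7.58 in the GNPs, 2.96 to 6.68 in the MBs and 4.23 to 4.37 in cerebellum. Cerebellum carried oligodendrocyte markers (mean level of 8 markers 9.72, against 3.42 to 5.46 in the MBs and 4.61 to 6.02 in the GNPs) and markers of Purkinje cells and mature granule neurons. Microglia markers stood at a mean level of 6.40 to 7.91 in the MBs, 3.58 to 4.65 in the GNPs and 5.82 to 5.91 in cerebellum, and 7 of the 8 were higher in the MBs than in the GNPs and 4 higher than in cerebellum. All 4 markers of dividing cells were higher in the MBs than in either normal group, with a mean level of 8.54 to 9.52, against 5.40 to 5.65 in the GNPs and 2.60 to 2.74 in cerebellum. Of 8 astroglial markers 4 were lower than in the GNPs and 5 lower than in cerebellum, with 1 higher in each case. The part of these cells in the differences described here was not tested. In the MBs and the GNPs 3 of the 8 oligodendrocyte markers lay below a level of 5 in every sample. Of the 4 markers of dividing cells, 3 lay below that level in both GNP samples and all 4 in both cerebellum samples. In such bulk samples fewer cells of a type and less RNA per cell cannot be told apart. The share of probe sets above a level of 5 was 42.2% to 43.4% on all arrays, and tumor MB_706 stood apart in RNA quality (difference between the 3' and 5' control probe sets 2.93, against 0.15 to 0.82 on the other arrays).

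**Figure D1:**
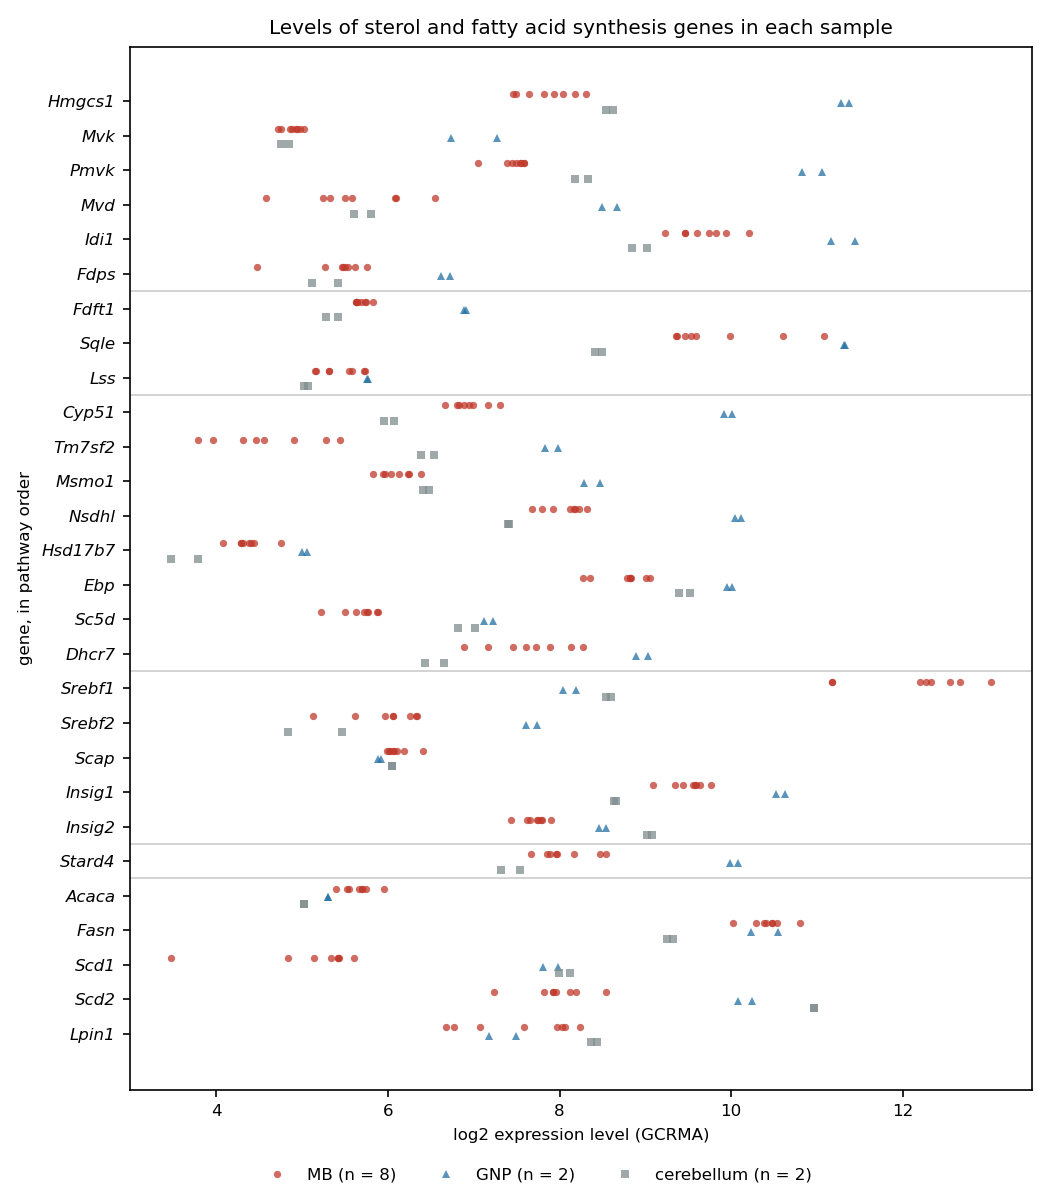
Log2 expression level of 28 genes of cholesterol and fatty acid synthesis in each of 8 MBs (circles), 2 GNP samples (triangles) and 2 cerebellum samples (squares), in pathway order with lines between the roles; levels of different genes are not comparable. For all 17 sterol enzymes the MBs lie to the left of both GNP samples, which was not counted over all genes. For Srebf1 all MBs (11.17 to 13.03) lie to the right of the normal samples (8.04 to 8.60).

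Sterol synthesis enzymes were lower in the MBs than in the GNPs along the whole pathway. Of the 17 measured, 16 fell and none rose, by 0.66 to 3.49 on the log2 scale. Among the 18193 genes measured, 18.6% fell and 18.7% rose in the MBs relative to the GNPs (limma, adjusted p under 0.05). The median difference was -1.62 for the enzymes and 0 over all genes. For all 17 each MB lay below both GNP samples, and how many of all genes did so was not counted. The exception to the test was Lss (lanosterol synthase), at -0.32 with an adjusted p of 0.155. Of all 28 genes, 22 were lower, 2 higher and 4 did not pass. The fit had 3 groups, tests were two-sided and p-values were adjusted over all 18193 genes. With 2 GNP samples, the spread rests mostly on the MBs.

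The early mevalonate pathway, which makes isoprenoid units, held the largest fall. Pmvk, phosphomevalonate kinase, had levels of 7.05, 7.51 and 7.58 (lowest, median and highest) in the MBs, 10.83 and 11.05 in the GNPs and 8.33 and 8.18 in cerebellum. The groups did not overlap, with the MBs lowest and the GNPs highest. The difference between MBs and GNPs was -3.49 (standard error 0.13, 11.2-fold, adjusted p = 4.2e-08 from limma), and it stayed between -3.60 and -3.38 when any one array was left out.

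Hmgcs1, HMG-CoA synthase, which supplies the substrate of the rate-limiting reductase, behaved alike. Its levels were 7.46, 7.88 and 8.31 (lowest, median and highest) in the MBs, 11.38 and 11.28 in the GNPs and 8.54 and 8.62 in cerebellum. Again no MB reached either normal group. The difference from the GNPs was -3.47 (standard error 0.21, 11.0-fold, adjusted p = 1.4e-06 from limma), and all 4 averaged probe sets of the gene were lower, by -4.54 to -2.10.

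Mvd, which decarboxylates mevalonate diphosphate, varied more among the tumors. It stood at 4.58, 5.54 and 6.54 (lowest, median and highest) in the MBs, at 8.50 and 8.66 in the GNPs and at 5.80 and 5.61 in cerebellum. All MBs lay below the GNPs, whereas they spanned the cerebellum values. Of the others, mevalonate kinase (Mvk) differed from the GNPs by -2.11, the isopentenyl diphosphate isomerase Idi1 by -1.62 and farnesyl diphosphate synthase (Fdps), at the branch to protein prenylation, by -1.29, and each passed the test.

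At the squalene steps Sqle and Fdft1 fell and Lss did not pass. Sqle, squalene epoxidase, a rate-limiting enzyme of the later pathway, had levels of 9.35, 9.56 and 11.08 (lowest, median and highest) in the MBs, 11.32 and 11.33 in the GNPs and 8.49 and 8.41 in cerebellum. The MBs lay between the normal groups, and tumor MB_630 came close to the GNPs. Its difference from the GNPs was -1.45 (limma, standard error 0.44, adjusted p = 0.025). This call was lost without either GNP sample, with differences of -1.45 in both cases. Squalene synthase (Fdft1) differed by -1.21 as the mean of a pair of probe sets, of which one stood at the lowest value in all 12 samples and the other differed by -2.42.

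All 8 enzymes from lanosterol to cholesterol were lower in the MBs than in the GNPs. Tm7sf2, a sterol reductase of the nuclear envelope and endoplasmic reticulum, showed the largest fall among them, with levels of 3.78, 4.50 and 5.44 (lowest, median and highest) in the MBs, 7.98 and 7.83 in the GNPs and 6.53 and 6.39 in cerebellum. No MB reached a normal sample. The difference from the GNPs was -3.32 (standard error 0.40, 9.99-fold, adjusted p = 1.2e-04 from limma).

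Cyp51, the lanosterol demethylase, had levels of 6.67, 6.92 and 7.31 (lowest, median and highest) in the MBs, 10.00 and 9.92 in the GNPs and 5.95 and 6.07 in cerebellum. Here the MBs lay between the normal groups, nearer to cerebellum. The difference from the GNPs was -3.01 (standard error 0.14, 8.05-fold, adjusted p = 2.1e-07 from limma). Further along, the methylsterol oxidase Msmo1 differed by -2.28, the decarboxylating dehydrogenase Nsdhl by -2.02, the sterol isomerase Ebp by -1.24 and the desaturase Sc5d by -1.50. The smallest called fall was that of the ketoreductase Hsd17b7, at -0.66, and the final reductase Dhcr7 differed by -1.32 (its call was lost without CGNP_2705, at -1.25).

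**Figure D2:**
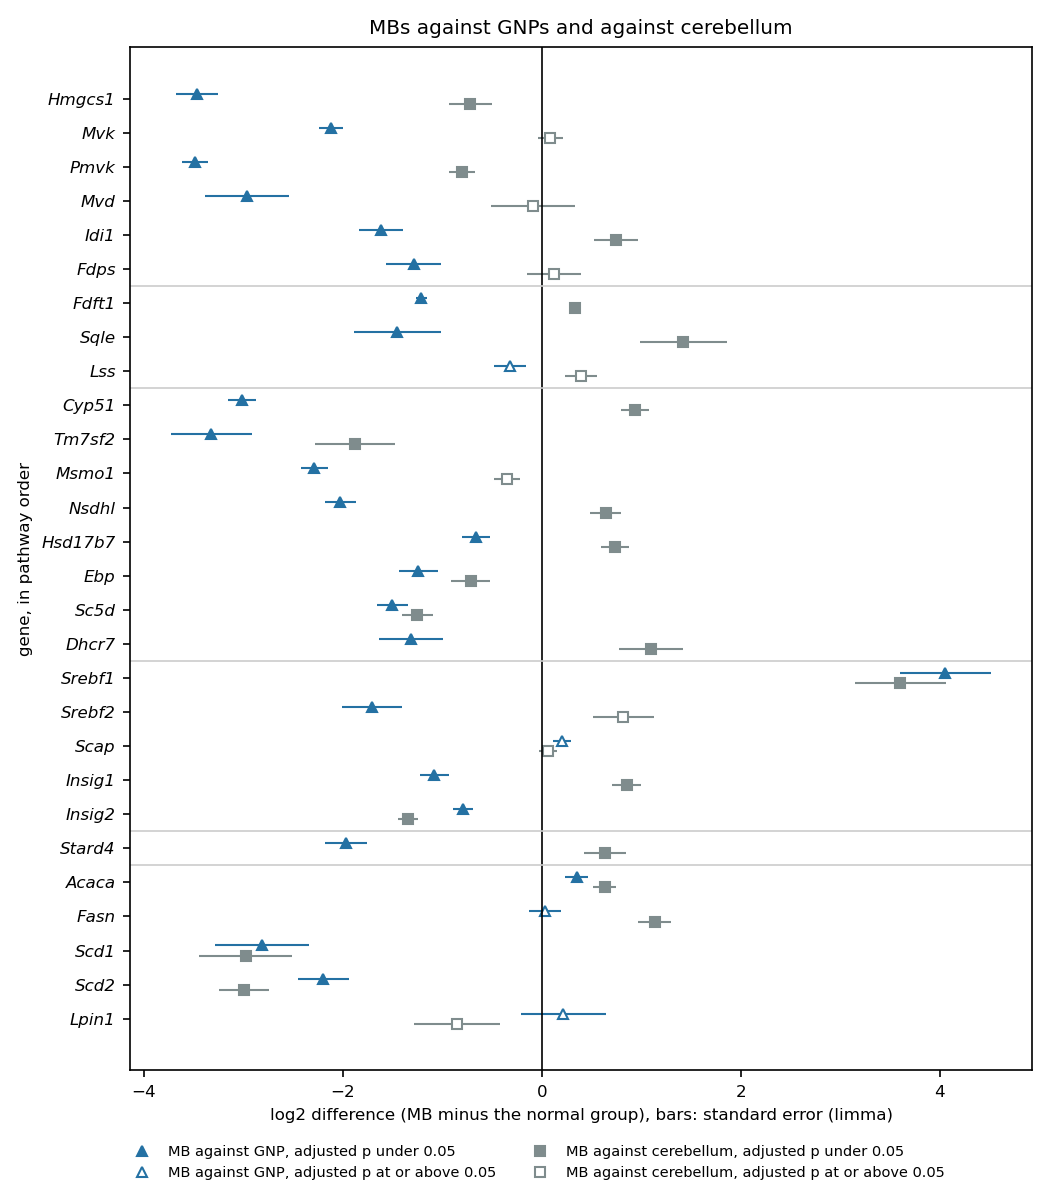
Log2 difference of the MBs from the GNPs (triangles) and from cerebellum (squares) for the 28 genes in pathway order, with standard errors from limma and open symbols where the adjusted p was at or above 0.05. Against the GNPs 16 of the 17 sterol enzymes carry a filled symbol to the left of 0, against cerebellum filled symbols lie on both sides, and Srebf1 stands far to the right in both.

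The mean over probe sets understates some of these differences. Of the 54 probe sets averaged, 7, each of another gene (Fdps, Fdft1, Lss, Hsd17b7, Sc5d, Scap and Acaca), lay below a level of 5 in every sample. Without them, a choice made after seeing the data, the difference between MBs and GNPs became -2.58 for Fdps, -2.42 for Fdft1, -2.24 for Sc5d and -0.94 for Hsd17b7, and Lss stood at -0.80 and still missed the threshold (limma, adjusted p = 0.080, and 0.030 to 0.417 over the alternatives). The other 27 probe sets of sterol enzymes were all lower in the MBs than in the GNPs, by -4.54 to -0.65.

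**Figure D3:**
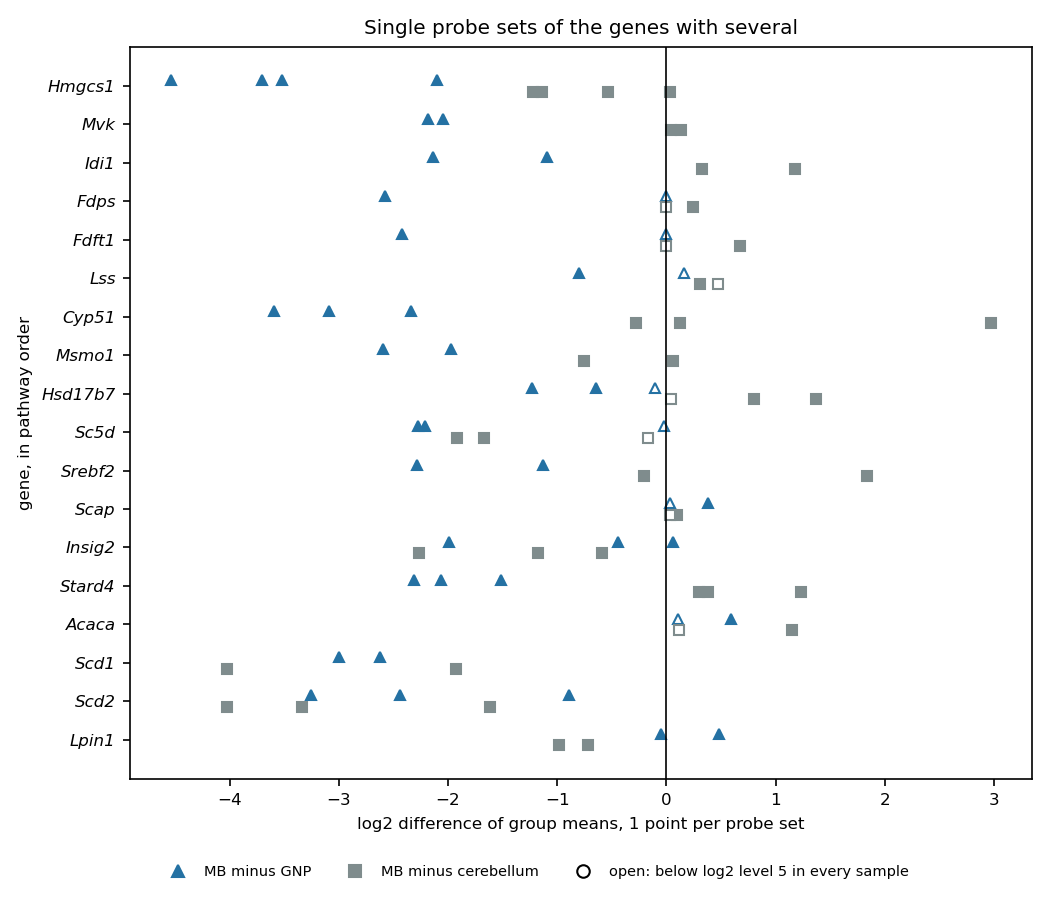
Log2 difference of group means for each averaged probe set of the 18 genes with more than 1, MBs minus GNPs (triangles) and MBs minus cerebellum (squares), open where the probe set lay below a level of 5 in every sample. All filled triangles of sterol enzymes lie left of 0, the squares of Cyp51 reach from -0.28 to 2.97, and the triangles of Insig2 from -1.99 to 0.06.

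Against cerebellum the enzymes moved both ways. Of the 17, 7 were higher in the MBs (Idi1, Fdft1, Sqle, Cyp51, Nsdhl, Hsd17b7 and Dhcr7), 5 were lower (Hmgcs1, Pmvk, Tm7sf2, Ebp and Sc5d) and 5 did not pass. The background over all genes was 22.2% higher and 21.8% lower. The median difference was 0.12 for the enzymes. Of all 28 genes, 12 were higher and 8 lower, and when the arrays were centred on a common median 10 were higher and 10 lower. This comparison uses the same MBs as that with the GNPs, so the values are given side by side and no overlap of calls was tested.

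By the mean over probe sets, Sqle differed from cerebellum by 1.43 (limma, standard error 0.44, adjusted p = 0.023), Dhcr7 by 1.10, Cyp51 by 0.94 and Hsd17b7 by 0.74. The 3 probe sets of Cyp51 differed by 2.97, 0.13 and -0.28, so its rise rests on 1 of them. Among the falls were Tm7sf2 at -1.87 (limma, standard error 0.40, adjusted p = 0.0035), Sc5d at -1.25, Pmvk at -0.80, Hmgcs1 at -0.72 and Ebp at -0.71. The differences of Mvk (0.09), Mvd (-0.09), Fdps (0.12), Lss (0.39) and Msmo1 (-0.35) did not pass. For Hmgcs1, Mvk, Cyp51 and Msmo1, 1 averaged probe set each lay below a level of 5 in all MBs and both cerebellum samples. These probe sets differed from cerebellum by 0.03 to 0.13 and enter the means above. The order of the enzymes depends on the probe sets used. With the probe set of highest signal Hsd17b7 stood at 1.49, Mvd at 1.36, Cyp51 at -0.28 (not called) and Sc5d at -1.92. Under this rule Idi1 (0.32) and Fdft1 (0.20) also lost their calls, while Mvd and Msmo1 (-0.76) passed. Without WC_2646 or without WC_2647 the count of enzymes higher was 4 and that of enzymes lower was 3, and Hmgcs1, Idi1, Sqle, Ebp and Dhcr7 lost their calls in both cases.

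The enzymes also differed between the normal groups. All 17 enzymes had higher values in both GNP samples than in both cerebellum samples, and 14 passed the test, with none lower. The background of the test over all genes was 14.9% higher and 13.6% lower. With 2 samples against 2, all 28 genes of the set lay apart, 22 above and 6 below cerebellum. The share of all genes that lay apart was not counted. The median difference was 2.20 for the enzymes, with Cyp51 at 3.95 (standard error 0.18, adjusted p = 1.6e-07 from limma) and Mvd and Sqle at 2.88 each. With the probe set of highest signal Cyp51 stood at 2.82 and Mvd at 3.30. Ebp (0.52), Sc5d (0.25) and Tm7sf2 (1.45) did not pass. Those 3 fell in the MBs against either normal group. Of all 28 genes, 18 were higher in the GNPs and 1 lower (Insig2). The part of mesenchymal cells, which the markers show in the GNPs, and of the makeup of cerebellum in these differences was not tested.

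When the 4 normal samples were taken as one group, as in the methods, differences between GNPs and cerebellum entered the spread. Of the enzymes 6 were lower in the MBs (Hmgcs1, Pmvk, Tm7sf2, Msmo1, Ebp and Sc5d) and none higher, and of all 28 genes 9 were lower and 2 higher. The background over all genes was 16.4% lower and 20.0% higher. Msmo1 lost its call when either GNP sample was left out. For 11 genes (these 6 enzymes with Srebf1, Insig2, Acaca, Scd1 and Scd2) no MB overlapped a normal sample. Each gave p = 0.00404 in an exact permutation test (two-sided, the smallest p that 8 samples against 4 allow). This p follows from the lack of overlap and adds nothing to it. How many of all genes lay apart in this way was not counted. Sqle and Hsd17b7 differed from the joint group by -0.01 and 0.04, although each differed from both normal kinds, in opposite directions.

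Among the regulators, Srebf1 rose and Srebf2 fell against the GNPs. Srebf1, which encodes SREBP1a and SREBP1c, had levels of 11.17, 12.30 and 13.03 (lowest, median and highest) in the MBs, 8.04 and 8.19 in the GNPs and 8.60 and 8.54 in cerebellum. Every MB lay above every normal sample. The difference was 4.06 from the GNPs (standard error 0.46, 16.7-fold, adjusted p = 7.4e-05 from limma) and 3.60 from cerebellum (12.2-fold, adjusted p = 1.1e-04), whereas GNPs and cerebellum differed by -0.45, which did not pass. It was the largest rise of the set. Srebf1 has 1 probe set on the array, which does not tell its isoforms apart here.

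Srebf2, the main driver of sterol genes, had levels of 5.12, 6.06 and 6.34 (lowest, median and highest) in the MBs, 7.61 and 7.74 in the GNPs and 5.46 and 4.83 in cerebellum. The MBs lay below the GNPs and overlapped cerebellum. The difference was -1.71 from the GNPs (limma, standard error 0.31, adjusted p = 0.0015). That from cerebellum was 0.82 and did not pass (limma, adjusted p = 0.053, from 0.0022 to 0.453 over the alternatives), while the GNPs exceeded cerebellum by 2.53. Its probe sets differed from cerebellum by 1.84 and -0.20.

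The sterol sensors divided. Insig1, itself a target of SREBPs that retains the SCAP complex, stood at 9.08, 9.56 and 9.76 (lowest, median and highest) in the MBs, at 10.62 and 10.52 in the GNPs and at 8.65 and 8.63 in cerebellum. It thus lay between the normal groups, with differences of -1.08 and 0.85 that both passed. Insig2, whose product does the same work, was lowest in the MBs (7.43 to 7.90), higher in the GNPs (8.46 and 8.54) and highest in cerebellum (9.02 and 9.08). Its differences of -0.79 and -1.34 passed, but the probe sets of Insig2 differed from the GNPs by -1.99, -0.45 and 0.06. Scap, the SREBP escort, differed by 0.21 from the GNPs and 0.06 from cerebellum, and neither passed.

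Stard4, which carries cholesterol between membranes, had levels of 7.67, 7.96 and 8.54 (lowest, median and highest) in the MBs, 9.98 and 10.08 in the GNPs and 7.54 and 7.32 in cerebellum. The MBs lay between the groups, close to cerebellum. The differences were -1.96 from the GNPs (standard error 0.21, 3.90-fold, adjusted p = 5.6e-05 from limma) and 0.64 from cerebellum (adjusted p = 0.033, from 0.017 to 0.231 over the alternatives).

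Of the fatty acid genes, the desaturases fell in the MBs and the enzymes that make the chain did not. Fasn, fatty acid synthase, had levels of 10.02, 10.44 and 10.81 (lowest, median and highest) in the MBs, 10.23 and 10.55 in the GNPs and 9.32 and 9.25 in cerebellum. MBs and GNPs overlapped, with a difference of 0.03 that did not pass, and both lay above cerebellum, the MBs by 1.14 (standard error 0.16, adjusted p = 2.5e-04 from limma). Acaca, acetyl-CoA carboxylase, which commits acetyl-CoA to fatty acids, has a probe set below a level of 5 in every sample. Its other probe set was 1.15 above cerebellum and 0.595 above the GNPs. By their mean Acaca was 0.63 above cerebellum and 0.35 above the GNPs. The latter call (adjusted p = 0.037, limma) was kept in 4 of the 12 fits that leave out 1 array and lost in the others, among them the fit without tumor MB_706 (0.34, adjusted p = 0.057, where the largest over these fits was 0.162). Without tumor MB_706 the counts against the GNPs were 1 higher and 22 lower of the 28.

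Scd1, a stearoyl-CoA desaturase that makes monounsaturated fatty acids, had levels of 3.47, 5.37 and 5.60 (lowest, median and highest) in the MBs, 7.81 and 7.98 in the GNPs and 7.99 and 8.12 in cerebellum. Every MB lay below every normal sample, tumor MB_1207 farthest. The difference from the GNPs was -2.81 (limma, standard error 0.47, adjusted p = 9.6e-04) and that from cerebellum -2.98. One of the averaged probe sets of Scd1 lay at 2.34 to 2.44 in every MB, close to the lowest value, so both differences are bounds and the falls may be larger. The other probe set differed by -3.00 from the GNPs and by -4.02 from cerebellum (limma, adjusted p = 0.027 and 0.0048). Scd2, the form most abundant in brain, stood at 7.24, 7.94 and 8.55 (lowest, median and highest) in the MBs, at 10.25 and 10.08 in the GNPs and at 10.96 in both cerebellum samples. It too was separate in the MBs, with differences of -2.19 from the GNPs and -2.99 from cerebellum (standard error 0.25, 7.97-fold, adjusted p = 6.5e-06 from limma). The part in this of oligodendrocytes, whose 8 markers all fell in the MBs against cerebellum while 3 of the 8 fell against the GNPs, was not tested. Lpin1, a phosphatidate phosphatase of glycerolipid synthesis, passed in none of the comparisons and ranged from 6.68 to 8.24 in the MBs.

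The spread between the 8 MBs was small beside most of the differences from the GNPs. The SD over the MBs had a median of 0.26 over the 28 genes (0.31, from 0.11 for Mvk to 0.79 for Fdps, without the 7 dim probe sets), beside a median of 0.27 over the 8370 genes with a mean level over 5. Tumor MB_1207 was the highest for 8 of the 28 genes, and its median deviation from the tumor median was 0.26. Tumor MB_706, with its lower RNA quality, was the lowest for 8.

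Srebf1 and Srebf2 were both lowest in tumors MB_630 and MB_1224. Srebf1 stood at 11.17 in both, with the other 6 MBs from 12.20 upward, and Srebf2 at 5.12 in MB_630 and 5.61 in MB_1224, with the others from 5.96 upward. Lpin1 was low there as well (6.77 and 6.68), and also in MB_1187 (7.07). Sqle was the reverse, highest in tumors MB_630 (11.08), MB_1224 (10.60) and MB_794 (9.99), and at most 9.59 in the other 5. These 3 are the MBs for which the study lists a gain of Myc. Sqle lies 2654 kb from Myc on chromosome 15 (GRCm38.p6), and Srebf2, which was lowest in 2 of the 3, is on that chromosome too. Copy number was not read here, and any part of the Myc gain in these levels was not tested. Tumor MB_630 also had the highest mean level of oligodendrocyte, astroglial, Purkinje, mature granule neuron, endothelial and mesenchymal markers among the MBs, and the part of that in its levels was not tested.

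**Figure D4:**
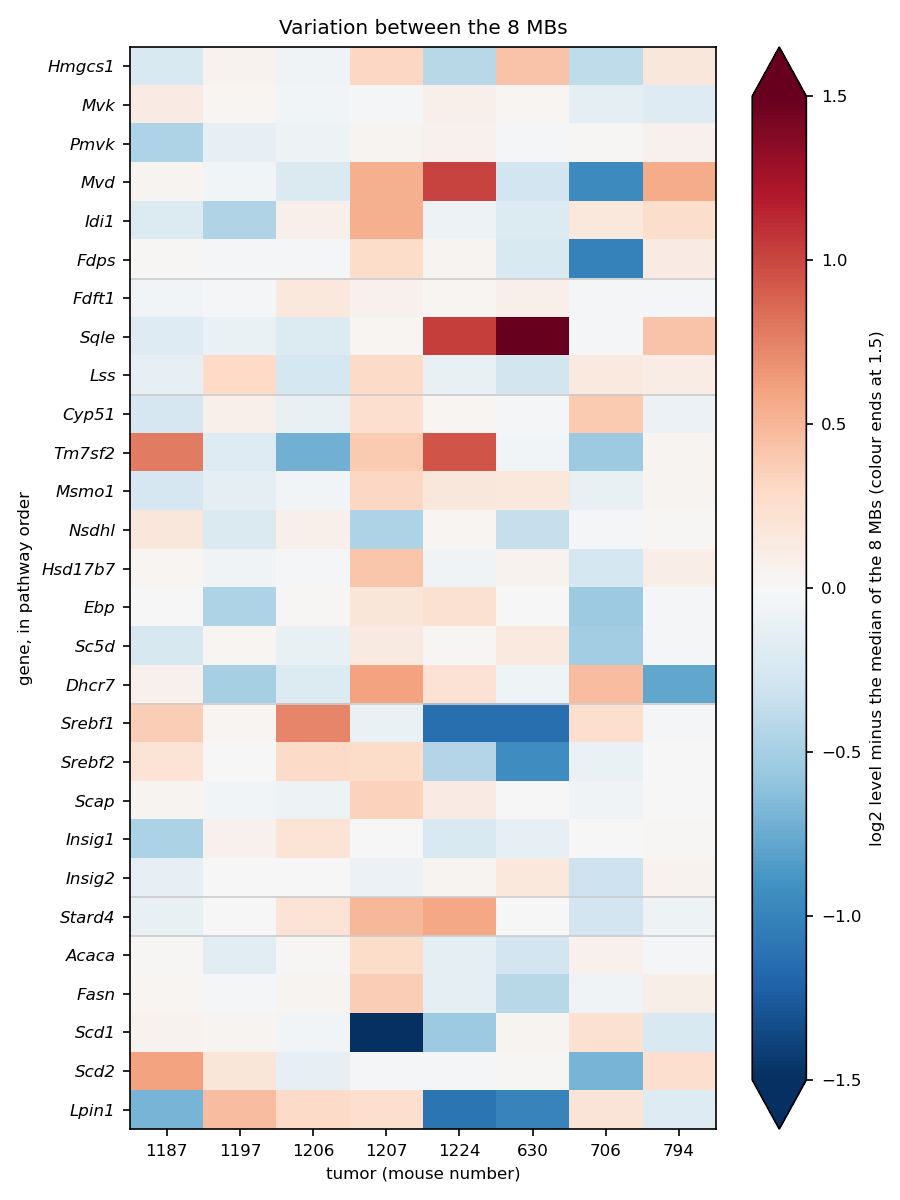
Log2 level of each of the 28 genes in each MB minus the median over the 8 MBs, with the colour scale ending at 1.5 in either direction. Sqle is raised in tumors MB_630 and MB_1224, where Srebf1, Srebf2 and Lpin1 are lowered, and tumor MB_1207 is lowest for Scd1 (3.47).

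Neighbouring steps of lipid metabolism were read from 5 further lists (59 genes, 55 measured). In all, 7 were higher (12.7%) and 23 lower (41.8%) in the MBs than in the GNPs, beside 18.7% and 18.6% of all genes. Against cerebellum 6 were higher (10.9%) and 20 lower (36.4%), beside 22.2% and 21.8% of all genes. In fatty acid supply and elongation 12 of 16 were lower against the GNPs and 1 higher, and 7 were lower against cerebellum (43.8%) with none higher. The median differences of this list were -0.997 and -0.45. Hsd17b12, a reductase of fatty acid elongation, fell by 2.23 against the GNPs and the desaturase Fads2 fell by 1.57, while Elovl2, an elongase of polyunsaturated fatty acids, was higher by 3.04. Against cerebellum the elongase Elovl7 differed by -2.71 and the elongation reductase Tecr by -2.36.

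In SREBP processing the shares called were near or below those of all genes given above. Of 8 genes, 1 was higher in the MBs than in the GNPs (the site-1 protease Mbtps1, by 1.44) and 1 lower (Erlin2, by -0.46), and 2 were higher than in cerebellum (Tmem97, by 2.31, and the site-2 protease Mbtps2, by 1.53). In the isoprenoid branch, where farnesyl and geranylgeranyl groups are passed to proteins and other products, 4 of 10 were higher and 3 lower against the GNPs, where shares of 18.7% and 18.6% hold over all genes. Icmt, which methylates prenylated proteins, was 1.93 above the GNPs and differed by -2.62 from cerebellum. Coq2, of ubiquinone synthesis, was 0.81 above the GNPs, and the farnesyltransferase subunit Fnta (-0.77) and the dolichol synthesis subunit Nus1 (-0.75) were below. Against cerebellum 1 of the 10 was higher (Pggt1b, by 0.38) and 4 were lower, Fnta by -1.05.

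Of 9 genes of sterol export, storage and oxysterols, none was higher and 3 were lower in the MBs than in the GNPs (33.3%, beside 18.6% of all genes). Ch25h, which makes an oxysterol that restrains SREBP cleavage, stood at a mean of 2.23 in the MBs and 2.21 in cerebellum, close to the lowest value, and at 6.98 in the GNPs. Cyp46a1, which makes the oxysterol by which neurons shed cholesterol, was at 2.20 in the MBs, 4.89 in the GNPs and 5.98 in cerebellum. As both lay at the bottom of the scale in the MBs, their differences of -4.75 and -2.69 from the GNPs are bounds, and the falls may be larger. Against cerebellum 1 of the 9 was higher (Npc2, a lysosomal cholesterol carrier, by 0.50, with overlapping samples) and 4 lower, among them the sterol exporter Abcg1, by -2.83. In glycerolipid synthesis 1 of 12 was higher than in the GNPs (Lpin2, by 1.44, 8.33% beside 18.7% of all genes) and 4 were lower (33.3% beside 18.6%), led by Dgat2 (-2.70), the last enzyme of triglyceride synthesis, and Gpam (-0.91), an acyltransferase of its first step. Against cerebellum 2 were higher (Lpin2, by 0.86, and Pemt, by 0.48, 16.7% beside 22.2% of all genes) and 5 lower (41.7% beside 21.8%), led by Chka (-1.18, with overlapping samples) and Gpam (-0.95).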

How the data were processed

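Expression was measured on Affymetrix mouse arrays in 12 samples, 1 per mouse. The deposited log2 values, 1 per probe set and array, were made by the authors from the raw arrays with affy and GCRMA in R. GCRMA normalizes arrays to 1 common distribution, so a change shared by most genes would not be seen. The arrays hold 45101 probe sets, of which 64 are controls. Of the others, 34945 belong to 1 gene, 932 to several and 9160 to none in the platform annotation. Gene values were means over the probe sets specific to a gene, without those of suffix s or x unless a gene had no others (290 genes), which gave 18193 genes. The genes, lists and tests were chosen with earlier results of these data known.

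Groups came from the labels. limma 3.58.1 in R 4.3.3 (lmFit and eBayes) compared the 3 groups, and the MBs with all 4 normal samples, with Benjamini-Hochberg adjustment over all 18193 genes. Calls were made at an adjusted p under 0.05. The code was tested on simulated data. Single genes were compared by exact permutation tests, two-sided by doubling the smaller tail (scipy 1.17.1). All 28 measured genes are named, those with the largest called difference of each role in full. Of the further lists, up to 2 rises and 2 falls per comparison are named. Alternatives were other probe set rules (one of them added after seeing the data), quantile normalization of the deposited values, centring of arrays on a common median, a trend and robust spread, a filter on level, the methods' t-test, and leaving out each sample. The number of arrays limits the precision. Promoter windows came from RefSeq, GRCm38.p6. Windows of Fdps, Fdft1, Sqle, Stard4, Scd1 and Scd2, and protein sequences, were not analysed here. Figures were drawn with matplotlib 3.10.9.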

Additional observations from a re-analysis of the deposited data

Results flagged for a closer look

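In 3 of the 28 genes 1 MB lay far from the other 7, by a gap of more than 0.526 of the range of the group (Dixon's test). Chance alone marks about 1 group in 20. Pmvk stood at 7.05 in tumor MB_1187, with a gap of 0.638 of the range, Fdps at 4.47 in tumor MB_706 (0.613) and Scd1 at 3.47 in tumor MB_1207 (0.639). Each of the 3 values was the lowest of its gene, and MB_706 was the tumor with the largest difference between 3' and 5' control probe sets. Without the marked tumor the differences from the GNPs were -3.43 for Pmvk, -1.16 for Fdps and -2.58 for Scd1, and each passed the test.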

How the results depend on the processing

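The alternatives gave 587 values for single genes in each comparison. Of these, 569 against the GNPs, 553 against cerebellum, 557 between GNPs and cerebellum and 570 against the joint normal group kept their side of the threshold. Called values among them also kept their direction, while values that stayed uncalled were counted whatever their direction. In the same order, 14, 19, 13 and 3 lost their call and 3, 13, 17 and 14 gained one without a change of direction. Against the GNPs the count of sterol enzymes lower was 14 to 16 when 1 sample was left out, 17 with all probe sets of a gene and with the median shift, 15 with the filter on level and 16 under the other alternatives. With the probe set of highest signal in place of the mean, 3 of the differences called under either rule turned. Mvd against cerebellum became 1.36, Cyp51 against cerebellum -0.28 and Insig2 against the GNPs 0.0624. Differences called under neither rule, of which some turned as well (such as Srebf2 against the joint normal group), were not counted. With that rule the median SD over the MBs was 0.28, and without dim probe sets 0.31. With at most 1 letter changed, 10 genes held the sterol response element. Of the 28 genes, 1 was higher than in the GNPs after quantile normalization, after the median shift and by the methods' t-test with adjustment, and 1 to 3 when 1 sample was left out. Between GNPs and cerebellum 2 were lower with the probe set of highest signal, with the median shift and by the adjusted t-test, 5 by the unadjusted t-test and 1 to 2 when 1 sample was left out (2 without tumor MB_706). Against cerebellum the enzymes higher were 4 to 8 and the enzymes lower 3 to 6 when 1 sample was left out. The median shift moved the median of all genes by -0.11 (MBs and GNPs), -0.20 (MBs and cerebellum), -0.08 (GNPs and cerebellum) and -0.16 (MBs and normal brain), since genes at the floor move with the array, and the counts of all genes lower became 8784, 9857, 6439 and 9573. By the adjusted t-test 1463 genes were higher and 1384 lower in the GNPs than in cerebellum. The cause of the other changes was not tested. No paired analysis was possible because the groups share no mouse numbers. With 2 samples in each normal group, calls can depend on single arrays even for differences above 1. Among these were Sqle and Dhcr7 against either group, Fdps between GNPs and cerebellum, and Msmo1, Mvk and Mvd against the joint normal group. Low signal limits the probe sets below a level of 5.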
